A study of Mus musculus with 48 samples.

Results

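Transcripts of immune genes in the epididymal fat pad were compared between C3H/HeOuJ mice fed sucrose/palmitate and C3H/HeOuJ mice fed chow. The comparison took the 8 libraries titled sucrose/palmitate and the 8 titled chow, 16 of the 48 samples of the series. Of the 547 endogenous genes on the NanoString nCounter Mouse Immunology panel, a hybridisation assay that counts colour-coded probes without amplification, 491 were tested, those whose count averaged 10 or more across the series. Both groups were kept on their diet for 6 months with free access to food. The sucrose/palmitate diet was a custom Dyets formula in which sucrose supplied the carbohydrate, 42% of calories, and palmitate the fat, another 42%. Chow, the control diet, was PicoDiets chow. The 4 other groups of the series, fed starch/palmitate, sucrose/oleate, starch/oleate or a commercial Western diet, came from the same strain, tissue and feeding time. The labels give no age, sex, body weight or cage, and they do not say whether each library came from its own mouse. The p-values therefore measure the spread between these libraries.

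White fat stores triglyceride in adipocytes, and its stromal fraction holds macrophages, dendritic cells, lymphocytes and mast cells. In obese mice, macrophages that carry CD11c, encoded by Itgax, gather around dying adipocytes in crown-like structures, and groups of B and T cells form lymphoid clusters in visceral fat. Adipocytes also make several complement proteins, above all adipsin, the product of Cfd, which cleaves factor B to start the alternative pathway. Palmitate is a saturated fatty acid and oleate a monounsaturated one, while sucrose is a disaccharide of glucose and fructose.

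Total gene counts ran from 599327 to 691270 in chow and from 396391 to 825470 in sucrose/palmitate. The total count, the reference gene level, the negative control mean and the ratio of positive controls A and B were compared between the groups by exact permutation tests. None of these 4 measures differed in its group mean beyond its spread (two-sided exact permutation, adjusted p 0.55 to 0.82). A test of means does not show a split inside a group, and the ratio was split in sucrose/palmitate. Libraries 1 to 4 had 3.31, 3.40, 3.33 and 3.56, and libraries 5 to 8 had 3.10, 2.99, 3.13 and 3.15. The values of libraries 5 to 8 were all below the lowest chow library, at 3.17. With this ratio as covariate 40 genes passed against chow, where 84 did without it. The cause of the split was not tested. Counts were divided by the geometric mean of the 14 reference genes and are given as scaled counts. In the edgeR fit 1 of these 14, Alas1, was itself lower on sucrose/palmitate (log2 difference -0.42 ± 0.10, adjusted p 0.0060). No other reference gene passed. Gusb had 0.49 ± 0.20 and Hprt -0.28 ± 0.11 (adjusted p 0.082 and 0.079). The negative control probes, which have no target, averaged 7.52 scaled counts in chow and 8.38 in sucrose/palmitate, so values near 8 cannot be told from background. Of the fat cell markers, Cd36 had a median of 74926 scaled counts in chow and Cfd one of 40102, and no member of the fat cell list lay at background. The libraries thus carried transcripts of the labelled tissue. In whole tissue, fewer cells of a type and less RNA per cell cannot be told apart.

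After 6 months of sucrose/palmitate, most of the genes that moved were higher than in chow. At an adjusted p below 0.05, 84 of the 491 genes passed, or 17.1%. Of these, 73 rose, 14.9% of the genes tested, and 11 fell, 2.24%. An unadjusted p below 0.05 was reached by 164 genes, 33.4%. The whole panel leaned the same way, with a median log2 difference of 0.20 and 367 of the 491 genes on the higher side. This lean depended on the scaling. With trimmed mean of M-values (TMM) scaling the median was 0.06 and 34 genes rose while 29 fell, and with DESeq2 the median was 0.03 and 38 rose while 32 fell. All 84 genes kept their sign under TMM and 81 under DESeq2, where Stat4, Cd46 and Mapkapk2 changed sign. Differences below are log2 differences, sucrose/palmitate minus chow, with their standard error, and list medians are to be read against the 0.20 of all genes.

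The transforming growth factor beta receptor gene Tgfbr1 had the smallest p. This receptor passes the signal of a cytokine that drives matrix deposition and restrains immune cells. Its scaled counts were 664 at the lowest, 988 at the median and 1299 at the highest in chow, and 1207, 1529 and 2113 in sucrose/palmitate. In 7 of the 8 sucrose/palmitate libraries it lay above every chow library. Tgfbr1 rose 1.66-fold (0.73 ± 0.13, adjusted p 0.00050). Plau, the urokinase that activates plasmin and with it the breakdown of matrix, ran from 951 through a median of 1157 to 1397.5 in chow and from 1268 through 1908 to 2397 in sucrose/palmitate. It rose by a log2 difference of 0.67 ± 0.14 (adjusted p 0.0019), with 6 of 8 libraries above the chow range.

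Lair1, an inhibitory receptor of leukocytes for collagen, rose too (1.04 ± 0.27, adjusted p 0.012). Tgfbr1, Plau and Lair1 were the 3 that rose of the 14 genes on the list of transforming growth factor beta and matrix genes. They made up 21.4% of the list, where 17.1% of all genes passed. The matrix list's median was 0.10, below that of all genes, so the 3 members stood apart from the other 11, which did not pass.

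Among the genes that fell, Cfb, which encodes complement factor B, had the smallest p. It ran from 2399.9 through 3293 to 4446 in chow and from 1379 through 1973 to 2405 in sucrose/palmitate. In 6 of 8 sucrose/palmitate libraries it was below every chow library, and the groups touched only at chow library 4. Cfb fell by 0.74 ± 0.14 on the log2 scale (adjusted p 0.00054). Irak2, a kinase that carries the signal of toll-like and interleukin-1 receptors, fell by 0.38 ± 0.09 (adjusted p 0.0063), and 4 of 8 libraries were below the chow range. Bcap31, a protein of the endoplasmic reticulum that takes part in protein export and in cell death, fell by 0.34 ± 0.08 (adjusted p 0.0059), and 7 of 8 were below that range.

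Tgfbr1, Plau, Cfb, Irak2 and Bcap31 were among the 6 of the 84 genes that passed under all 11 alternative settings and with each of the 16 libraries left out in turn. With each library left out, 16 of the 84 passed every time and the other 68 lost their call without at least 1 library. The count of calls fell to 23 without sucrose/palmitate library 1, to 42 without library 7, and to 46, 32, 31 and 53 without chow libraries 2, 4, 6 and 8. It was highest, at 112, without chow library 7. Without sucrose/palmitate library 1, 61 of the 84 calls were lost. At least 23 of the 84 calls remained whichever library was left out. Set against the 491-gene median, the differences were 0.53 for Tgfbr1, 0.47 for Plau, -0.94 for Cfb, -0.59 for Irak2 and -0.55 for Bcap31.

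**Figure D1:**
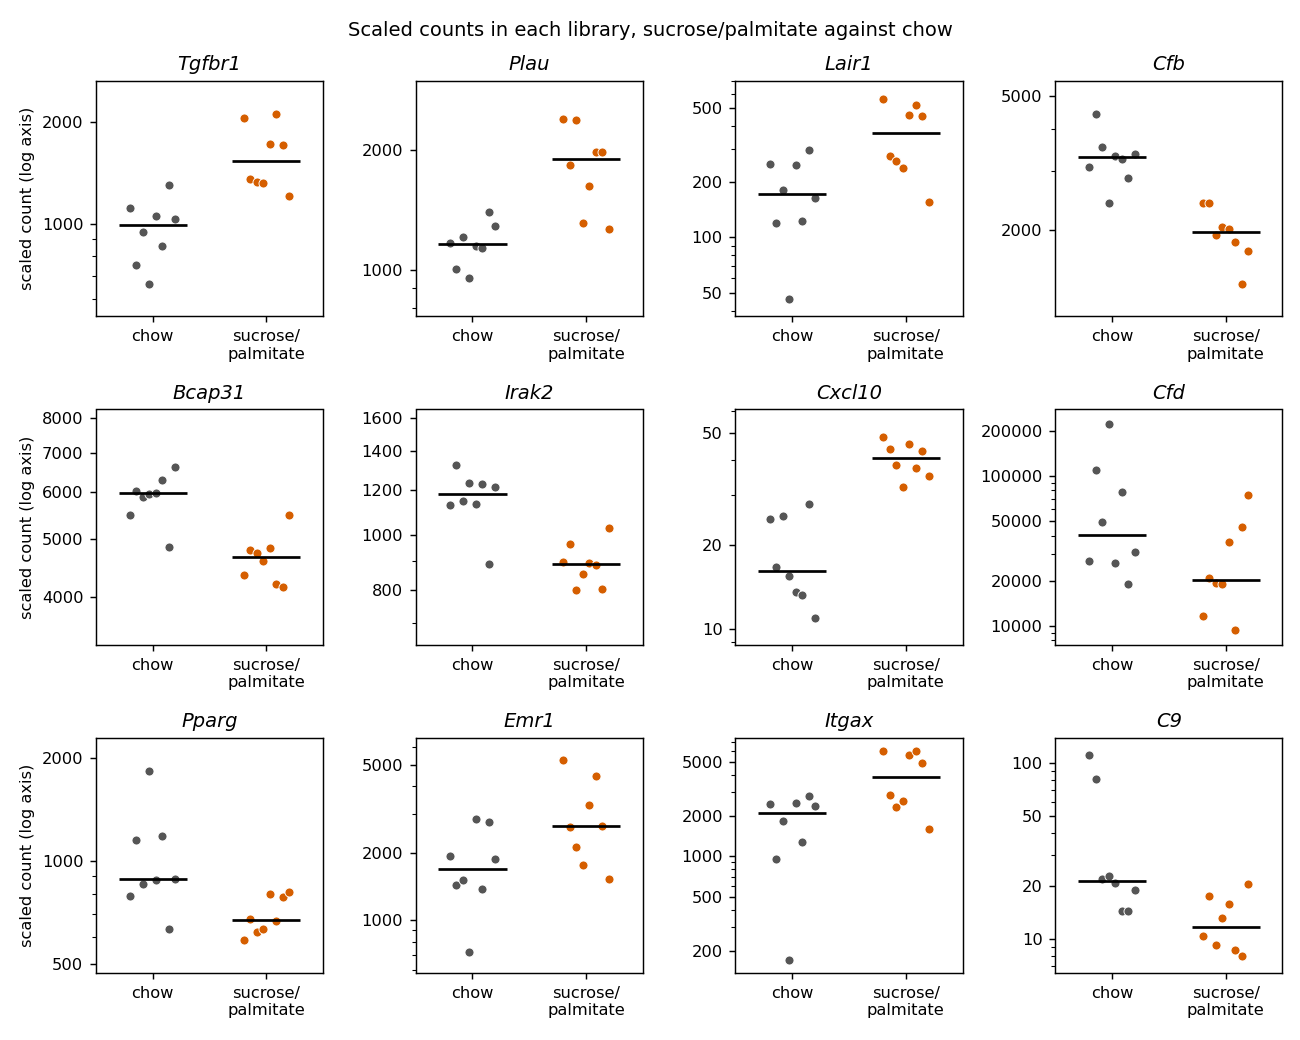
Scaled counts of 12 genes in each library on log axes, chow in grey and sucrose/palmitate in orange, with a line at the median of the 8 libraries of a group. The values of Cxcl10 do not overlap between the groups, those of Tgfbr1, Plau and Cfb overlap in few libraries, and those of Cfd, Emr1 and Itgax overlap widely.

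**Figure D2:**
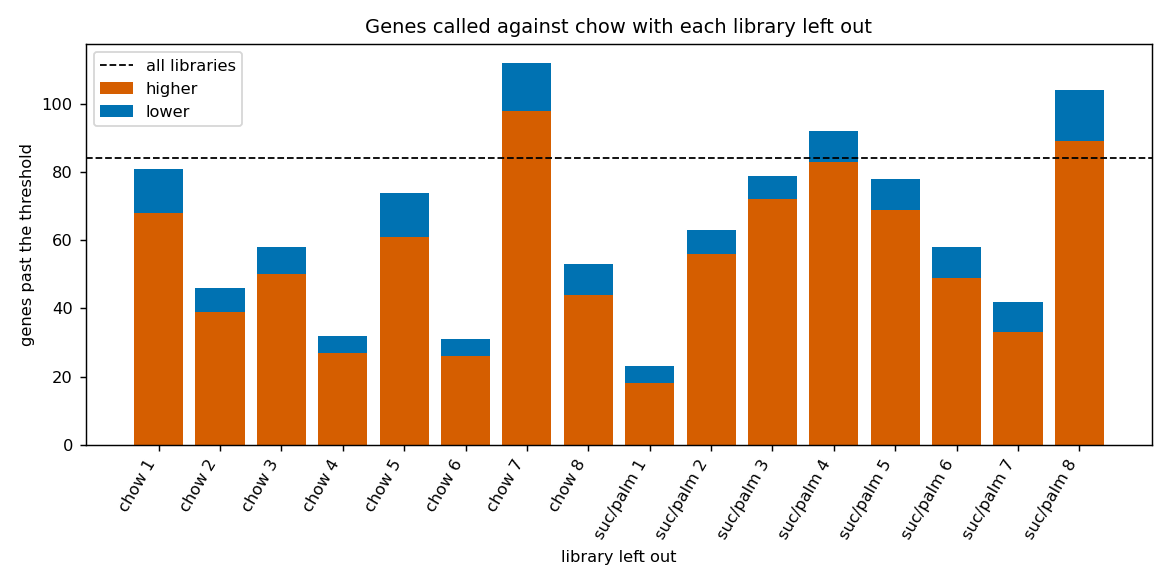
Number of genes past an adjusted p of 0.05 with each of the 16 libraries left out in turn, split into genes higher (orange) and lower (blue) in sucrose/palmitate. The dashed line marks the 84 calls with all libraries, and the lowest bar, 23, is the fit without sucrose/palmitate library 1.

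Genes of the fat cell were lower on sucrose/palmitate. All 3 members of the adipocyte and lipid handling list on the panel fell, where 2.24% of all genes did. The list's median log2 difference was -0.56, against 0.20 for all genes tested. All 3 also passed as lower under TMM scaling and DESeq2. With only the 2 groups in the edgeR fit 0 of the 3 passed (3 at an unadjusted p below 0.05). The same held with the mean level of the lymph node and follicle genes as covariate. With replicate number as block, or without sucrose/palmitate libraries 3 and 4 together, 1 passed. Cd36, the fatty acid transporter of fat cells, macrophages and capillaries, ran from 64350.0 through 74926 to 90905 scaled counts in chow and from 42970.4 through 58078 to 66345 in sucrose/palmitate. In 6 of the 8 libraries it was below every chow library, and it fell by 0.43 ± 0.14 (adjusted p 0.039). Pparg, the nuclear receptor that directs fat cell differentiation, had a chow range of 633 to 1826 around a median of 883, and a range of 587 to 811 around 670 on sucrose/palmitate. It fell by 0.56 ± 0.15 (adjusted p 0.017), all 8 libraries being below the chow mean.

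Cfd varied far more than the other fat cell genes. Chow libraries ran from 18982 through a median of 40102 to 222161, and sucrose/palmitate libraries from 9299 through 20129 to 74784. The ranges overlapped widely, with 2 of 8 sucrose/palmitate libraries below the chow range. Cfd fell by 1.249 ± 0.45 (adjusted p 0.048). This call was lost in 11 of the 16 fits that left out 1 library, those without chow libraries 2, 3, 4 and 6 and sucrose/palmitate libraries 1 to 7, with a log2 difference between -1.60 and -0.72. Pparg lost its call without chow library 4, which had the highest Cfd and the highest Pparg (adjusted p 0.077). Cd36 lost its call without any of chow libraries 2, 4, 5, 6 and 8 and sucrose/palmitate libraries 1, 2, 3, 4 and 7 (adjusted p up to 0.078).

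Cd1d1, which encodes the molecule that presents lipids to natural killer T cells and is abundant in fat cells, was also lower. Its range was 5643 to 13758 around a median of 11433 in chow and 4309 to 9359 around 6157 on sucrose/palmitate. It was below the chow mean in 8 of 8 libraries and fell by 0.73 ± 0.21 (adjusted p 0.019). The call was lost without chow library 6 or sucrose/palmitate library 1 (adjusted p up to 0.051). No other of the 14 genes of antigen presentation by MHC class I and the proteasome passed, and this list's median was -0.01. Its share that passed was 7.14%, where it was 17.1% for all genes.

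Some macrophage genes were higher on sucrose/palmitate. Of 19 tested, 5 rose and none fell, and 18 lay on the higher side, for a list median of 0.55. The share that passed, 26.3%, compares with 17.1% for all genes. With TMM scaling 3 rose, with the positive control ratio as covariate 1, and with only the 2 groups in the edgeR fit 0 did (7 of the 19 at an unadjusted p below 0.05, and 3 rose by DESeq2 on all samples). Those that rose with all 6 diets in the fit were Emr1, which encodes F4/80 and is now called Adgre1, the endotoxin co-receptor Cd14, Ly86, which pairs with a toll-like receptor homologue, the fractalkine receptor Cx3cr1 and the C-type lectin Clec5a. Their log2 differences ran from 0.62 for Clec5a to 0.78 for Cx3cr1. Csf1r, the receptor of the macrophage growth factor, had a difference of 0.34 ± 0.18 (adjusted p 0.19), and Itgam, which encodes CD11b, one of 0.13 ± 0.22 (adjusted p 0.70).

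Emr1 had a chow range of 721 to 2844 around a median of 1700.4, and a range of 1529 to 5272 around 2643 on sucrose/palmitate. In 3 of 8 libraries it exceeded every chow library, so most values overlapped. It rose by 0.71 ± 0.26 (adjusted p 0.049), and passed in 5 of the 16 fits that left out a library. The fits that lost it were those without chow libraries 1, 2, 3, 4, 6 and 8 and sucrose/palmitate libraries 1, 2, 5, 6 and 7 (adjusted p up to 0.16). Cd14 and Cx3cr1 lost their calls without chow library 4 or 6 or sucrose/palmitate library 1 (adjusted p up to 0.082 and 0.060). Clec5a lost its call without chow libraries 4, 6 and 8 and sucrose/palmitate libraries 1, 6 and 7, and Ly86 without chow libraries 2, 4 and 6 and the same 3 of sucrose/palmitate (adjusted p up to 0.081 and 0.093).

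The CD11c gene Itgax showed the largest rise on the lipid-associated macrophage and dendritic cell lists. Chow ran from 169 through a median of 2073 to 2808, and sucrose/palmitate from 1596 through 3862 to 6005. Library 8 was lowest in the sucrose/palmitate group and 5 of 8 were above the chow range. Itgax rose 2.23-fold (1.16 ± 0.33, adjusted p 0.019), a call lost without sucrose/palmitate library 1 (1.05, adjusted p 0.0505), with only the 2 groups in the fit and with the mean level of the lymph node and follicle genes as covariate (adjusted p up to 0.082). Cd9, a tetraspanin of macrophages that take up lipid, rose by 0.60 ± 0.17 (adjusted p 0.019, lost without chow library 6 or sucrose/palmitate library 1). Trem2, the lipid-sensing receptor of the same cells, had a difference of 0.70 ± 0.30 and did not pass (adjusted p 0.092). Of the 4 genes on the lipid-associated macrophage list, 2 thus rose and 1 fell. The gene that fell was Cd36 (-0.43 ± 0.14, adjusted p 0.039), which is also on the fat cell list. On the dendritic cell list 3 of 11 passed, 27.3% against 17.1% of all genes, all higher. Besides Itgax these were the maturation marker Cd83 (0.71 ± 0.23, adjusted p 0.032) and Ccl22, a chemokine of dendritic cells and macrophages (0.81 ± 0.23, adjusted p 0.020). Cd83 lost its call without chow libraries 2, 4 and 6 and sucrose/palmitate libraries 1, 6 and 7, and Ccl22 without chow library 4 (adjusted p up to 0.081 and 0.059).

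None of the 6 genes listed for resident macrophages passed, where 17.1% of all genes did. The scavenger receptor gene Cd163 ran from 624.7 through 884 to 1500 in chow and from 502 through 602 to 881 on sucrose/palmitate. Its values were below the chow mean in 8 of 8 libraries, for a difference of -0.52 ± 0.24 that did not pass (adjusted p 0.12). With TMM scaling or DESeq2, 1 of these 6 genes was called lower, where 29 and 32 of all 491 genes were. The median of the list was -0.21, while that of the macrophage list was 0.55, a contrast for which no test was made.

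In chow, fat cell and macrophage genes ran in opposite order across libraries. On log2 scaled counts Cfd and Itgax had a Pearson r of -0.93 and a Spearman rho of -1 over the 8 chow libraries (exact permutation, p 4.96e-05, the smallest that 8 libraries allow, and adjusted p 0.00040 for each over 8 relations), and r was -0.99 without the 2 libraries farthest from the median of Cfd. Cfd against Emr1 gave r of -0.94 and rho of -0.95 (exact permutation, adjusted p 0.0022 and 0.0046), and -0.89 without those 2. Pparg gave r of -0.94 with Itgax and of -0.90 with Emr1 (rho -0.86 and -0.81, exact permutation, adjusted p 0.0044 and 0.013 for r, and 0.029 and 0.044 for rho), and -0.90 and -0.59 without 2 libraries. In the sucrose/palmitate group the same 4 relations had r of -0.65, -0.47, -0.34 and -0.10, and none passed (exact permutation, adjusted p 0.12 for Cfd with Emr1, up to 0.82 for Pparg with Itgax). Their Spearman rho ran from -0.57 to -0.24 (exact permutation, adjusted p 0.24 to 0.58). Without 2 libraries these r were -0.50, -0.29, -0.20 and 0.16. Whether the relations differed between the diets was not tested, and both genes of a pair share the scaling factor of their library.

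**Figure D3:**
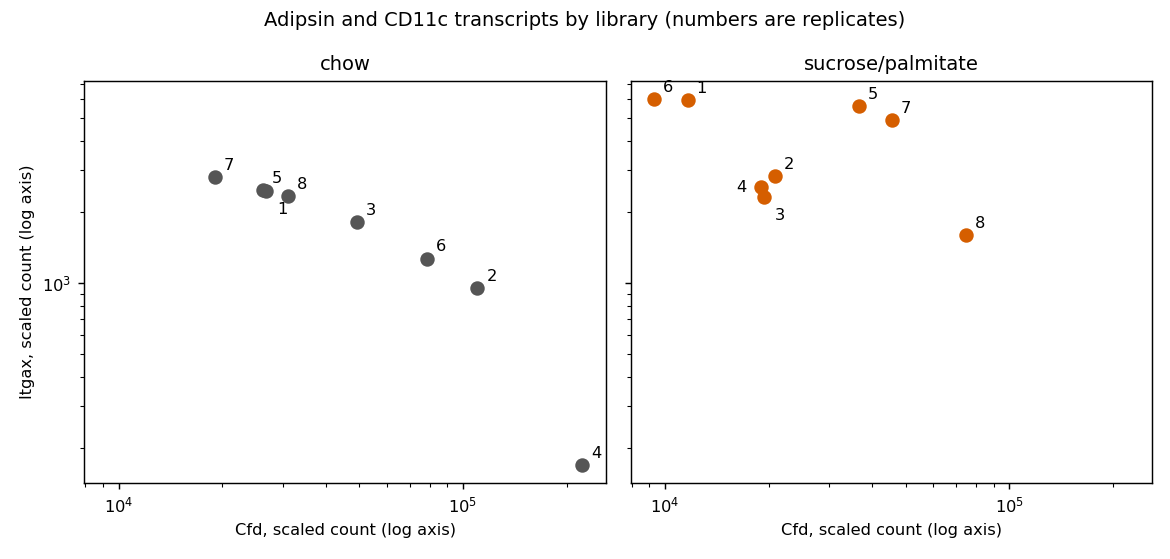
Scaled counts of Itgax against those of Cfd on log axes, 1 point per library with its replicate number, chow on the left and sucrose/palmitate on the right. The 8 chow libraries fall in order from library 7 (18982 Cfd) to library 4 (222161 Cfd and 169 Itgax), while in sucrose/palmitate libraries 5 and 7 combine high Itgax with Cfd above that group's median.

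The list with the highest median difference was that of B cells, at 0.76. Of its 12 genes tested, 7 rose and none fell, a share of 58.3% where 14.9% of all genes rose. All 12 were on the higher side, as were 367 of all 491 genes. With only the 2 groups in the edgeR fit 0 of the 12 passed (9 at an unadjusted p below 0.05, and 6 by DESeq2 on all samples). The surface markers Ms4a1, which encodes CD20, and Cd79b, a chain of the antigen receptor complex, rose by 1.40 ± 0.43 and 1.35 ± 0.37 (adjusted p 0.028 and 0.018). Pax5, the transcription factor of B cell identity, rose by 1.12 ± 0.36 (adjusted p 0.032). The adaptor gene Blnk, the inhibitory lectin gene Cd22 and Tnfrsf13c, which encodes the receptor of the survival factor BAFF, rose by 0.78, 0.77 and 0.56 (adjusted p 0.019, 0.040 and 0.048). Tnfrsf13c had medians of 10.3 and 16.01 scaled counts, close to background.

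Libraries 1, 7 and 8 of the sucrose/palmitate group stood out for part of these genes. Ms4a1 was at 256 in library 1, 344 in library 7 and 197 in library 8, and between 40.9 and 95.0 in the other 5, where chow ran from 23.9 to 83.9. These 3 libraries also held the 3 highest values of Cd79b and Pax5. Blnk, which macrophages express too, was highest in libraries 6, 1 and 5, Cd22 in libraries 1, 5 and 7, and Tnfrsf13c in libraries 5, 7 and 8. Without libraries 1, 7 and 8, an alternative chosen after seeing the data, 1 of the 12 genes passed and the list median was 0.37. These calls were also sensitive to single libraries. Without library 1, Blnk, Cd22, Cd79b, Ms4a1, Pax5 and Tnfrsf13c all lost their calls, and without library 7 all of these but Blnk did. Cd79b then had log2 differences of no less than 1.01 and an adjusted p of at most 0.057.

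Cxcl13, the chemokine that draws B cells into follicles, was at 1292 in library 1 and 1270.0 in library 7. The other 6 sucrose/palmitate libraries ran from 28.3 to 252 and chow from 13.95 to 191, and the difference of 2.20 ± 0.86 did not pass (adjusted p 0.066). Of the 12 genes tested on the lymph node and follicle list, 1 rose, 8.33% where 17.1% of all genes passed. It was Ltb, which encodes lymphotoxin beta, a cytokine of lymphoid tissue (0.72 ± 0.26, adjusted p 0.048). Ltb was at 272 in library 7 and at 132 or less in the others, and without that library its difference did not pass (0.45, the lowest of the fits that left out 1 library). The call was also lost without chow libraries 1 to 6 and 8 and sucrose/palmitate libraries 1 and 2. Ccl19, a chemokine of the T cell zones of lymph nodes, had a difference of -0.23 ± 0.30 (adjusted p 0.61). The summed list ran from 1613 to 2874 scaled counts in chow and from 2017 to 4126 on sucrose/palmitate, highest in library 7. With the mean of this list as a covariate, 0 of the 12 B cell genes passed in the edgeR fit (1 at an unadjusted p below 0.05), and the B cell list median was 0.39 where it was 0.76 without the covariate. The 2 lists share Cr2 and Cxcr5, and whether lymph node tissue lay in the dissected pad was not tested.

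**Figure D4:**
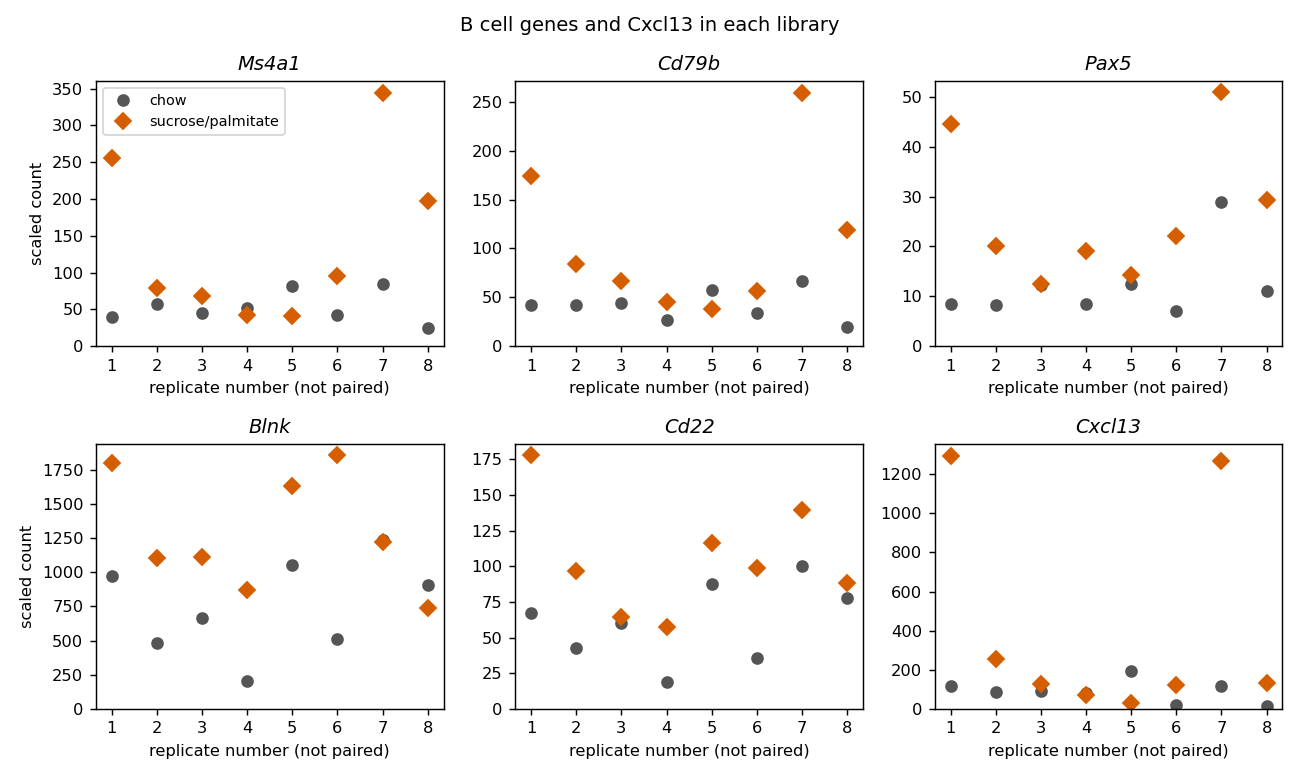
Scaled counts of 5 B cell genes and Cxcl13 in each library, chow as grey circles and sucrose/palmitate as orange diamonds, by replicate number, which does not pair the groups. Sucrose/palmitate libraries 1, 7 and 8 are highest for Ms4a1, Cd79b and Pax5, and libraries 1 and 7 for Cxcl13.

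T cell genes passed rarely. Of 22 tested, 1 passed, or 4.55%, against 17.1% of all genes, although 21 were on the higher side and the list median was 0.41. Cd3d, a chain of the T cell receptor complex, ran from 25.98 through 34.5 to 45.4 in chow and from 37.4 through 58.6 to 110.2 on sucrose/palmitate, with 5 of 8 libraries above the chow range. It rose by 0.81 ± 0.23 (adjusted p 0.019) and passed with every library left out, but not with only the 2 groups in the fit or with the lymph node list as covariate. Cd3e, another chain, had a difference of 0.68 ± 0.34 (adjusted p 0.15), and Cd4 and Cd8a had 0.42 ± 0.25 and 0.54 ± 0.33 (adjusted p 0.22 and 0.24). Cd8a, at medians of 7.49 and 10.7, and Foxp3, the regulator of regulatory T cells, at 8.91 and 6.45, were at background.

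Among the genes of regulatory T cells and checkpoints, 1 of 13 rose, 7.69% where 17.1% of all genes passed. It was Il2ra, which encodes the high-affinity chain of the interleukin-2 receptor (0.45 ± 0.14, adjusted p 0.032). The cytotoxic list had 2 of 17 that rose, 11.8%, also below the share of all genes. They were the granzyme gene Gzma (0.80 ± 0.27, adjusted p 0.035) and the Ly49 receptor gene Klra8 (0.74 ± 0.24, adjusted p 0.034). Klra8 is a member of a family of near-identical copies that probes may not separate. Il2ra, Gzma and Klra8 all lost their calls when sucrose/palmitate library 1 or 7 or chow library 2, 4 or 6 was left out (adjusted p up to 0.093). Kit, the stem cell factor receptor of mast cells, ran from 28.1 through 48.4 to 76.1 in chow and from 55.6 through 79.2 to 122 on sucrose/palmitate. The rise was uneven. Kit was at 117, 122, 120 and 87.0 in sucrose/palmitate libraries 2, 3, 4 and 8. In libraries 1, 5, 6 and 7 it was at 55.6, 56.7, 57.6 and 71.4, inside the chow range. Libraries 2, 3, 4 and 8 also had that group's highest summed epithelium list, a relation that was not tested. Kit was above the chow mean in 8 of 8 libraries and rose by 0.83 ± 0.21 (adjusted p 0.012). It passed with every library left out, but not with only the 2 groups in the fit. Fcer1a, the IgE receptor chain that defines mast cells and basophils, had 0.46 ± 0.22 and did not pass (adjusted p 0.14). It was highest in sucrose/palmitate libraries 7, 3 and 6, at 77.0, 65.0 and 58.5. None of the 7 neutrophil genes passed, where 17.1% of all genes did, although 6 were on the higher side and the list median was 0.38.

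Complement genes passed about as often as other genes, 16.7% against 17.1% of all genes. Of 24 tested, 3 fell, Cfb, Cfd and C9, and 1 rose, Cd46, which was high in a single library, for a list median of 0.07. Cfd and Cfb encode the protease and the substrate that start the alternative pathway. C3, the central component that both feed, was at 7475 in the median of chow and 5710 in that of sucrose/palmitate, but one sucrose/palmitate library was above the chow range and the difference of -0.27 ± 0.17 did not pass (adjusted p 0.24). The 3 of 24 that fell compare with 2.24% of all genes. With TMM scaling or DESeq2, 6 of the 24 complement genes fell and none rose, where 29 and 32 of all 491 genes fell. A larger share of complement genes than of all genes thus fell in each of these fits.

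C9, which encodes the pore-forming last component, ran from 14.3 through 21.3 to 110.7 in chow and from 7.93 through 11.7 to 20.3 on sucrose/palmitate, where it lay close to background. It fell by 1.58 ± 0.33 (adjusted p 0.0019) and passed with every library left out, but not with only the 2 groups in the fit (adjusted p 0.057). Chow libraries 1 and 2 stood high, at 110.7 and 81.1, and the other 6 chow libraries ran from 14.3 to 22.7. The same 2 libraries had the highest Vtn, at 226 and 113, and the highest Pigr, at 151 and 76.9. Vtn encodes vitronectin, a plasma and matrix protein that binds the terminal complement complex, and Pigr the immunoglobulin transporter of epithelia. Vtn fell by 0.70 ± 0.25 (adjusted p 0.047), a call lost in 10 of the 16 fits, among them those without chow library 1 or 2, with a log2 difference between -0.82 and -0.30. Pigr had -0.71 ± 0.96 (adjusted p 0.63). What these 2 libraries share beyond their diet was not tested.

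Chemokines and their receptors moved in part. Of 24 chemokines, 4 rose (Cxcl10, Cx3cl1, Ccl22 and Ccl7) and 1 fell (Ccl11), and of 17 receptors 3 rose, Cxcr6 and Cx3cr1 among them, shares of 20.8% and 17.6% that compare with 17.1% for all genes. Cxcl10, a chemokine induced by interferons that draws T cells and natural killer cells through Cxcr3, was the only one of the 491 genes whose values did not overlap between the groups, 0.204% of those tested. Chow libraries had 24.6, 16.6, 25.3, 15.5, 13.5, 13.3, 27.95 and 10.96 scaled counts, from library 1 to 8. The sucrose/palmitate libraries had 48.5, 43.7, 38.3, 32.1, 45.7, 37.4, 43.1 and 35.04. The highest chow library was thus below the lowest sucrose/palmitate library. All 16 values were low, and chow library 8 was near the negative control level.

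Cxcl10 rose 2.17-fold (1.12 ± 0.38, adjusted p 0.040). Its adjusted p rose above 0.05, to at most 0.081, without any of chow libraries 2, 4, 5, 6 and 8 or sucrose/palmitate libraries 1, 2, 5, 6 and 7. The fit shares its spread among all 6 diets, and Cxcl10 varied more in the starch/palmitate group (75.3 ± 67.5, SD, n = 7) than on sucrose/palmitate (40.5 ± 5.62, SD, n = 8). Cxcl9, another interferon-induced ligand of Cxcr3, had a difference of -0.15 ± 0.37 (adjusted p 0.80). Of the 23 interferon response genes 2 passed, Cxcl10 and Mx1, an antiviral GTPase (0.34 ± 0.11, adjusted p 0.034), 8.70% against 17.1% of all genes.

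The promoter of Cxcl10 is shown because this gene separated the diets in every library. In the RefSeq table of promoters it lies on the minus strand of GRCm38.p6 at chr5:92348840-92349139 and spans 250 bases before and 50 after the transcript start. Capitals mark matches to 2 motifs searched on both strands, GAAA followed by any 2 bases and a second GAAA for the interferon-stimulated response element, and GGGA followed by any 2 bases and TTCC for the kappa B site bound by NF-kappa B.
Cxcl10: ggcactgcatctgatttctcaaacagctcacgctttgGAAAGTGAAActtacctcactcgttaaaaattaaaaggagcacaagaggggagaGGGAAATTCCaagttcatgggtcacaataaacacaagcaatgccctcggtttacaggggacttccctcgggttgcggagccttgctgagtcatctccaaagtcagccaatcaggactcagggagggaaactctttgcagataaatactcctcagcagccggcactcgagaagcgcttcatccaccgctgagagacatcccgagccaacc
The response element matched 213 bases and the kappa B site 159 bases before the start, both on the strand of the gene. Over all 27025 genes of the table, 3.99% had a match to the response element and 1.63% a match to the kappa B motif. Among the 60 genes that rose and had a promoter in the table, 5 (8.33%) had the response element and 2 (3.33%) the kappa B motif, against 7.44% and 4.41% of the 363 tested genes with a promoter. The genes that rose thus carried both motifs about as often as the tested genes. A match describes the letters only.

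Cx3cl1, the membrane-bound chemokine fractalkine, and the gene of its receptor, Cx3cr1, both rose between the groups. Their order across sucrose/palmitate libraries differed. Library 8 had the lowest Cx3cr1, at 69.0, with Cx3cl1 at 110, and library 1 the highest Cx3cr1, at 233, with Cx3cl1 at 89.8. Cx3cl1 ran from 18.4 through 29.99 to 105 in chow and from 45.3 through 88.3 to 133 on sucrose/palmitate, above the chow mean in 8 of 8 libraries. It rose by 0.99 ± 0.30 (adjusted p 0.026), and Cx3cr1 by 0.78 ± 0.22 (adjusted p 0.019). Ccl7, a ligand of the monocyte receptor Ccr2, rose by 0.56 ± 0.18 (adjusted p 0.032), while Ccl2, the main ligand of that receptor, had 0.49 ± 0.24 (adjusted p 0.14) and Ccr2 itself -0.05 ± 0.18 (adjusted p 0.86). Ccl11, the eosinophil chemokine eotaxin, fell by 0.62 ± 0.22 (adjusted p 0.042), with 4 of 8 libraries below the chow range. Cxcr6, a receptor of T cells and natural killer T cells, rose by 1.07 ± 0.31 (adjusted p 0.019), but sucrose/palmitate library 7 held 266 where the other 7 had 92.7 or less. Without that library Cxcr6 had a difference of 0.65 and did not pass (adjusted p 0.10). Cx3cl1 lost its call without chow libraries 2, 4 or 6 or sucrose/palmitate library 1. Ccl7 lost its call in 7 and Ccl11 in 10 of the 16 fits that left out a library (adjusted p up to 0.086 and 0.098).

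Toll-like receptor and NF-kappa B signalling was covered by 38 tested genes. Of these, 8 rose and 1, Irak2, fell, 23.7% in all against 17.1% of all genes, while the list median, 0.13, was below that of all genes. Among the receptors, Tlr1, which pairs with Tlr2 to sense bacterial lipopeptide, rose by 0.86 ± 0.23 (adjusted p 0.015), Tlr2 by 0.62 ± 0.19 (adjusted p 0.026) and the DNA sensor Tlr9 by 0.59 ± 0.19 (adjusted p 0.032). The adaptors Traf2 and Traf5 rose by 0.36 ± 0.10 and 0.44 ± 0.11 (adjusted p 0.016 and 0.011), and both passed with every library left out. With only the 2 groups in the fit, or with the lymph node list as covariate, neither passed, and Traf2 did not under TMM scaling or DESeq2 (adjusted p up to 0.21). The regulators Nfkbiz and Tnfaip3, which are themselves targets of NF-kappa B, rose by 0.40 ± 0.12 and 0.37 ± 0.13 (adjusted p 0.028 and 0.042). Nfkbiz was above the chow range in 7 of 8 libraries, the highest chow value being 200 and the median of sucrose/palmitate 233. The calls of Card9, the adaptor of C-type lectin receptors, Nfkbiz, Tlr1, Tlr2, Tlr9 and Tnfaip3 were each lost without sucrose/palmitate library 1, and Tlr1 kept its call with each of the other libraries left out. With TMM scaling 4 of the 38 genes rose and 2 fell, where 34 and 29 of all 491 genes did.

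Of the 30 interleukin receptor genes, 7 rose and none fell (23.3%, against 17.1% of all genes that passed, list median 0.42). Il13ra1, a chain of the receptor of interleukin 4 and interleukin 13, ran from 281 through 339 to 577 in chow and from 459 through 536 to 555 on sucrose/palmitate. All 8 sucrose/palmitate libraries were inside the chow range but above the chow mean, and the gene rose by 0.47 ± 0.11 (adjusted p 0.0066). It passed with every library left out, but not under TMM scaling, under DESeq2 or with only the 2 groups in the fit (adjusted p up to 0.067). Il1rap, the accessory chain of the interleukin-1 receptor, ran from 84.7 through 103 to 138 in chow and from 129 through 148 to 171 on sucrose/palmitate, where 5 of 8 were above chow. It rose by 0.47 ± 0.12 (adjusted p 0.012). Il1r1, the chain that binds interleukin 1, rose by 0.48 ± 0.17 (adjusted p 0.048), a call lost in 12 of the 16 fits without a library. The chain Il1rl2, which binds interleukin 36, rose by 0.38 ± 0.12, Il11ra1 by 0.65 ± 0.18 and Il23r by 0.89 ± 0.26 (adjusted p 0.032, 0.019 and 0.019). Il1rl2 lost its call without chow library 4 or sucrose/palmitate library 1, 6 or 7, and Il11ra1 without sucrose/palmitate library 1. Il23r was at 66.8 in sucrose/palmitate library 7 and at 30.01 or less in the others, and did not pass without library 7 (0.61, adjusted p 0.078).

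The classical inflammatory cytokines did not pass. Tnf had medians of 22.1 and 30.1 scaled counts and a difference of 0.59 ± 0.27 (adjusted p 0.11). Il1b had 0.38 ± 0.48 (adjusted p 0.60), Il6 -0.23 ± 0.26 (adjusted p 0.55), Nos2, the inducible nitric oxide synthase, 0.04 ± 0.20 (adjusted p 0.93) and Il10 0.33 ± 0.24 (adjusted p 0.33). Their chow medians lay between 9.80 and 24.3 scaled counts, where the negative controls averaged 7.52. Of the 18 genes of that list, 3 rose, 16.7% where 17.1% of all genes passed. They were Ccl7, Ptgs2 and Il12a, the last at medians of 11.8 and 18.7, near background (0.72 ± 0.24, adjusted p 0.034).

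**Figure D5:**
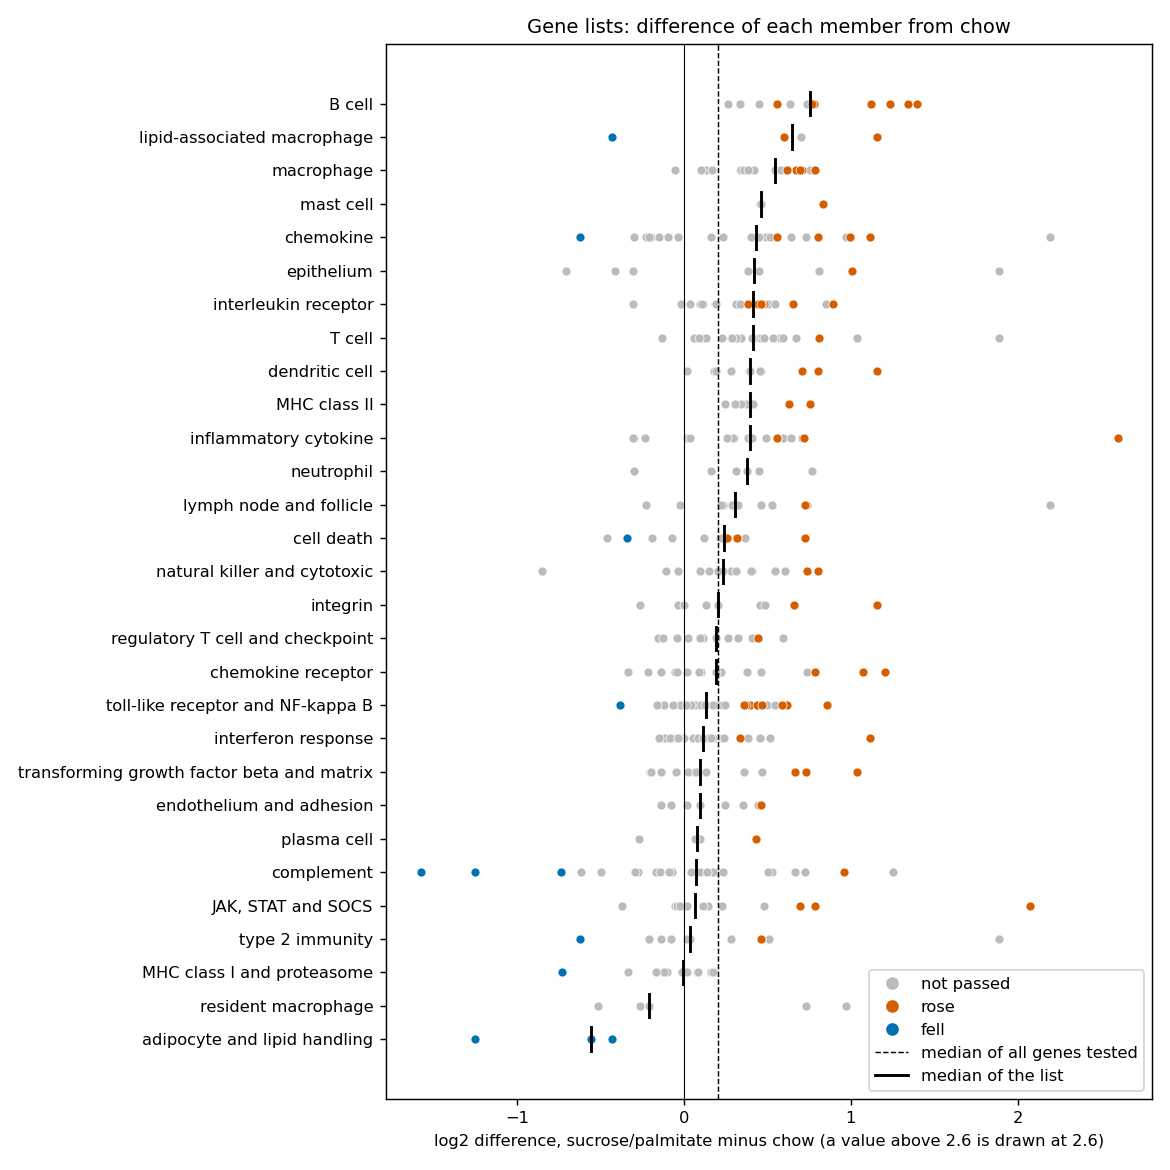
Log2 difference of every tested member of the 29 gene lists, with members that rose in orange, those that fell in blue and the others in grey, the list median as a bar and the median of all genes, 0.20, as a dashed line. The B cell list has the highest median, 0.76, and the adipocyte and lipid handling list the lowest, -0.56.

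Some of the largest differences came from a single library. Ptgs2, which encodes the prostaglandin synthase COX-2, was at 9674 scaled counts in sucrose/palmitate library 3, and at 82.5 or less in the other 7. Chow had a median of 43.2 and a highest value of 330 in library 4. The difference of 4.00 ± 1.35 passed (adjusted p 0.039), but was -0.77 without library 3 (adjusted p 0.65). Stat4, the transcription factor of the interleukin-12 response, was at 1191 in library 4 and at 61.4 or less in the other 7. Its difference of 2.07 ± 0.48 (adjusted p 0.0059) fell to 0.10 without that library (adjusted p 0.71).

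Library 4 also had the highest Cd46, a complement regulator, at 131 where the other 7 had 23.6 or less, and the highest Muc1, an epithelial mucin gene, at 75.5 where they had 19.2 or less. Cd46 (0.96 ± 0.31, adjusted p 0.034) and Muc1 (1.01 ± 0.35, adjusted p 0.046) passed with all libraries, and had 0.15 and 0.28 without library 4 (adjusted p 0.60 and 0.50). The summed epithelium list was 9569 in that library and 7320 in library 3, and ran from 1727 to 5125 in the other 6 and from 2104 to 4406 in chow. Gata3, the transcription factor of type 2 lymphocytes that epithelia express too, was at 1063 in library 3 and did not pass (1.89 ± 0.88, adjusted p 0.13). C4bp was at 480.2 in library 2 and Cfi at 289 in library 8, and neither passed. Whether tissue beside the fat pad took part in these values was not tested.

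The sucrose/palmitate group was also set against the diets that share its fat or its sugar. These comparisons use the same 8 sucrose/palmitate libraries, so their results are not independent of those against chow. Against starch/palmitate, which differs in its carbohydrate, 10 genes passed (2.04%), 3 higher (0.611%) and 7 lower (1.43%) on sucrose/palmitate. Against sucrose/oleate, which differs in its fat, 18 passed (3.67%), 11 higher (2.24%) and 7 lower (1.43%). Against the Western diet 30 passed (6.11%), 17 higher (3.46%) and 13 lower (2.65%). The genes counted as higher include some that stood high in a single sucrose/palmitate library. Stat4 was among them in each comparison, and Cd46 against sucrose/oleate and the Western diet. Ptgs2 was counted against sucrose/oleate and Muc1 against the Western diet.

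Against starch/palmitate, the genes with the smallest p against chow did not pass. Tgfbr1 and Cfb had differences of 0.02 ± 0.13 and 0.07 ± 0.14 from starch/palmitate (adjusted p 0.97 and 0.91), and Cfd one of 0.67 ± 0.46 (adjusted p 0.66). Il2ra was higher on sucrose/palmitate (83.5 ± 20.9, SD, n = 8) than on starch/palmitate (56.9 ± 9.20, SD, n = 7), with 5 of 8 libraries above that group's range (0.56 ± 0.15, adjusted p 0.040). The T cell checkpoint gene Tigit was lower, at 7.57 ± 2.61 against 23.99 ± 17.1 (SD), a background level on sucrose/palmitate (-1.60 ± 0.32, adjusted p 0.0019). Chow was at background too, at 8.01 ± 2.44 (SD), so it was the starch/palmitate group that stood above both. Defb1 (-6.52), Pigr (-5.67) and Ceacam1 (-2.62), all expressed in epithelia, and the MHC class I gene H2-Q10 (-2.87) were lower as well, with SDs above the means of the starch/palmitate group. Without starch/palmitate library 3 edgeR called 0 of the 491 genes (40 at an unadjusted p below 0.05, and 2 by DESeq2). Without sucrose/palmitate library 6 or 7 the count was 6, and without starch/palmitate library 7 it was 15.

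Against sucrose/oleate, Tgfbr1 was lower on sucrose/palmitate. It averaged 1601 ± 352 (SD, n = 8) against 2436 ± 403 on sucrose/oleate (SD, n = 9), with 6 of 8 libraries below the sucrose/oleate range (-0.61 ± 0.13, adjusted p 0.0078). Plau and Lair1 were lower as well, by -0.47 ± 0.13 and -0.99 ± 0.26 (adjusted p 0.035 and 0.028), as were Tnfaip3 (-0.48 ± 0.13) and Klra8 (-0.89 ± 0.23, adjusted p 0.028 for both). Mean scaled counts in chow, sucrose/palmitate and sucrose/oleate were 965, 1601 and 2436 for Tgfbr1. For Plau they were 1163, 1849 and 2558, and for Lair1 177.97, 366 and 725. The ratio of positive controls A and B also differed among these groups. It ran from 3.17 to 3.39 in chow, from 2.99 to 3.56 in sucrose/palmitate and from 2.92 to 3.07 in sucrose/oleate. Chow and sucrose/oleate did not overlap in it, so diet and this measure cannot be told apart between them. With the ratio as covariate, 1 gene passed between sucrose/palmitate and sucrose/oleate. Ccl24, a chemokine of eosinophils made by resident macrophages, was higher, at 211 ± 57.9 against 106 ± 38.01 (1.00 ± 0.22, adjusted p 0.0078), while chow was at 244 ± 77.1. Itgax and Cfd did not pass (-0.82 ± 0.32 and 1.12 ± 0.43, adjusted p 0.11 for both). The count of 18 ran from 2, without sucrose/oleate library 4, to 31, without sucrose/oleate library 6, and it was 30 and 29 without sucrose/palmitate libraries 1 and 6. It was 9, 4 and 7 without sucrose/palmitate libraries 3, 4 and 8, and 7, 6 and 3 without sucrose/oleate libraries 1, 7 and 8.

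Against the Western diet, 1 of the 3 fat cell genes passed. Cfd averaged 29624 ± 21946 (SD, n = 8) against 6759 ± 1909.8 (SD, n = 7), and all 8 sucrose/palmitate libraries were above the Western diet range (2.13 ± 0.48, adjusted p 0.0060). Pparg and Cd36 had differences of 0.23 ± 0.16 and 0.20 ± 0.15 (adjusted p 0.42 and 0.45). Cd1d1 was higher by 0.97 ± 0.22 (adjusted p 0.0060), with 7 of 8 above that range, and Bcap31 by 0.44 ± 0.08 (adjusted p 0.00054), with 8 of 8. Mean scaled counts in chow, sucrose/palmitate and Western diet were 5894, 4648 and 3432 for Bcap31, and 10445, 6299 and 3221 for Cd1d1. Il2ra was higher in 8 of 8 libraries (0.92 ± 0.15, adjusted p 6.35e-05), and the resident macrophage gene Cd163 too (0.81 ± 0.25, adjusted p 0.046). Smad3, which relays transforming growth factor beta signals, was below the Western diet range in 8 of 8 libraries (522 ± 47.2 against 714 ± 90.3, SD, and -0.45 ± 0.07, adjusted p 6.35e-05). Itgax, Emr1 and Ms4a1 did not pass (adjusted p 0.40, 0.22 and 0.85). The count of 30 was 15 and 17 without sucrose/palmitate libraries 4 and 8, 18, 17 and 18 without Western diet libraries 1, 3 and 7, and 58 without Western diet library 2.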

How the data were processed

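The authors deposited raw barcode counts per probe, which are whole numbers and were not scaled between samples, covering 547 endogenous genes, 14 reference genes, 8 negative and 6 positive control probes. The tool and version behind these counts are not given in the sources used here. RNA came from homogenised epididymal fat, extracted with a kit for lipid tissue, per the labels' protocols. Groups and columns were taken from the sample titles.

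Each library was scaled by the geometric mean of its reference genes, and the 491 genes averaging 10 counts or more were tested with edgeR 4.0.16 (glmQLFit and glmQLFTest, R 4.3.3). All 48 samples entered the fit with 1 mean per diet. Two-sided p-values were adjusted by Benjamini-Hochberg across all tested genes, and 0.05 was the threshold. At an unadjusted p below 0.05, 164 genes passed (33.4%). Group comparisons of technical measures and correlations used exact permutation tests. Genes were looked up in a RefSeq table for promoters only, and symbols are those of the table.

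Alternatives were TMM scaling, a filter at a mean of 30 or none, replicate number as block, a fit of the 2 compared groups alone, DESeq2 1.42.0, a robust spread, covariates (the positive control ratio or the mean lymph node gene level), and leaving out each library in turn. Leaving out sucrose/palmitate libraries 1, 7 and 8 together, or 3 and 4 together, was added after seeing the data. Libraries of the same number in the 2 groups had a mean correlation of deviations of 0.05 (-0.33 to 0.29), so the numbers do not pair them. No library was a copy of another (lowest chi-square per degree of freedom 13.6 over 120 pairs).

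The members of the comparison and the 29 gene lists were chosen with earlier results of these data known. Named genes are the 12 largest rises and up to 12 largest falls that passed, 4 passing members or fewer per list, a fixed set of markers, genes high in 1 library, genes without overlap and the 6 smallest p-values of each other comparison. Further list members that passed, and Csf1r, Itgam, Ccr2, Cxcl9, Vtn, Plau and Gpr183 where no list named them, were added after their values were seen. Some genes that this rule names are not reported here, although they are included in the counts.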

Additional observations from a re-analysis of the deposited data

Results flagged for a closer look

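Each named gene, and the total count, negative control mean and positive control ratio of the libraries, was checked for a library far from the other 7 of its diet (Dixon's test). Of 202 groups of values, 29 held such a library. Some of the genes were named because 1 library was far above the others, and the scaled counts were not put on a log scale. The share therefore cannot be set against chance. No cause was tested for any of them.

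Chow library 4 stood apart in 7 genes. It had the highest Cfd (222161 scaled counts, next highest 110122) and Pparg (1826, next 1182), and also the highest Ptgs2 (330, next 56.7), Gata3 (197, next 43.6), Defb1 (221, next 31.4) and Ceacam1 (303, next 191). It had the lowest Ccr2 (452, next 1029.8). Chow library 7 had the highest Pax5 (28.9), Ltb (119), Fcer1a (58.8), Tlr2 (130.1) and Il11ra1 (86.7), and the lowest Irak2 (889). Chow library 8 was highest in Il2ra (88.7), chow library 5 in Tigit (13.5) and chow library 1 in Vtn (226). Chow library 3 had the highest total count of its group (691270.0) and the lowest ratio of positive controls A and B (3.17, next 3.30).

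In the sucrose/palmitate group, library 7 was far above the others in Cxcr6 (266, next 92.7), Il23r (66.8, next 30.01), Ltb (272, next 132), Cd3e (87.2, next 36.7) and Vtn (80.4, next 54.7). Library 4 stood out in Stat4 (1191), Cd46 (131) and Muc1 (75.5), library 3 in Ptgs2 (9674) and Gata3 (1063), and library 2 in C4bp (480.2, next 150.2).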

How the results depend on the processing

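Of the 84 genes that passed against chow, 6 passed under every alternative. TMM scaling gave 34 higher and 29 lower, DESeq2 38 and 32, and 45 and 48 of the 84 calls were kept. With only the 2 groups in the fit 13 passed (9 higher, 4 lower). Adjusting for the positive control ratio, 40 passed (31 higher), and adjusting for the lymph node list, 14 (7 higher, 7 lower). That covariate holds genes of this list, so their calls were lost partly by construction. Without sucrose/palmitate libraries 1, 7 and 8 together 37 passed (27 higher), and without 3 and 4 together 7 were lower. The other alternatives (dropping the filter, raising it to a mean of 30, the robust spread) kept the total between 74 and 84. Leaving out 1 library at a time gave 23 to 112 calls, 18 to 98 higher and 5 to 15 lower.

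The replicate numbers do not pair the libraries, as 1 of the 8 sucrose/palmitate libraries correlated best with its own number. With the replicate number as a block 55 genes passed against chow (48 higher, 7 lower), 1 against starch/palmitate, 2 against sucrose/oleate and 12 against the Western diet.

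Against starch/palmitate, where 10 passed, 0 did with only the 2 groups in the edgeR fit (40 at an unadjusted p below 0.05, and 3 by DESeq2), 1 with the positive control ratio and 16 with the lymph node list, and leaving out 1 library gave 0 to 15. Against sucrose/oleate, where 18 passed, TMM gave 40, DESeq2 60, the positive control ratio 1 and the lymph node list 64, and leaving out 1 library 2 to 31. Against the Western diet, where 30 passed, only the 2 groups gave 16 and leaving out 1 library 15 to 58.

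Signs turned in few genes. Under DESeq2 Stat4 was at -0.072, Cd46 at -0.077 and Mapkapk2 at -0.011. Ptgs2 was at -0.98 without sucrose/palmitate libraries 3 and 4 together, and ran from -0.77 to 4.87 with 1 library left out. The cause of these changes was not tested, except that fewer libraries entered the fits that left some out. Genes near the negative control level of 8.38 scaled counts, such as C9, Il12a, Tnfrsf13c and Cd8a, are limited by background.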

Other observations

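Genes of antigen presentation by MHC class II were all on the higher side in sucrose/palmitate, with a list median of 0.40 over 9 genes. Of these 2 rose, 22.2% where 17.1% of all genes passed. They were H2-Ob, a subunit that restrains peptide loading in B cells (0.63 ± 0.21, adjusted p 0.034), and H2-DMb2, a subunit of the loading chaperone (0.76 ± 0.26, adjusted p 0.040). H2-DMb2 ran from 53.7 through 93.7 to 175 scaled counts in chow and from 89.7 through 186 to 267 in sucrose/palmitate. The summed list ran from 18030 to 38024 in chow and from 33421 to 56504 in sucrose/palmitate, so the ranges overlapped. Both genes lost their calls without sucrose/palmitate library 1 or 7, among others. Gpr183, a receptor for oxysterols that positions B cells and dendritic cells and was named after its values were seen, ran from 32.2 through 55.6 to 79.997 in chow and from 71.2 through 94.2 to 149 in sucrose/palmitate. It rose by 0.84 ± 0.21 (adjusted p 0.011) and passed with every library left out, but not with the lymph node list as covariate (adjusted p 0.072).

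Among the JAK, STAT and SOCS genes 3 of 16 passed, 18.8% where 17.1% of all genes did, Stat4 and 2 phosphatases that restrain lymphocyte and myeloid receptors. Ptpn6, which encodes SHP-1, rose by 0.79 ± 0.21 (adjusted p 0.016) and Ptpn22 by 0.70 ± 0.25 (adjusted p 0.048). Of the 9 integrin genes 2 rose (22.2%), Itgax and Itga4, which encodes the alpha 4 chain that binds VCAM-1 (0.66 ± 0.22, adjusted p 0.040). Icam1, the adhesion molecule of endothelium and leukocytes, was the 1 of 9 endothelium and adhesion genes that rose (11.1%). It ran from 146 through 182 to 266 in chow and from 212 through 288 to 315 in sucrose/palmitate, with 5 of 8 libraries above the chow range (0.47 ± 0.14, adjusted p 0.028). Of the 14 cell death genes 3 rose and Bcap31 fell (28.6%). Tnfrsf11a, which encodes the osteoclast and macrophage receptor RANK, was among them (0.73 ± 0.19, adjusted p 0.014), as was the apoptosis mediator Bid (0.32 ± 0.11, adjusted p 0.048). Prdm1, the regulator of plasma cell fate, was the 1 of 4 plasma cell genes that passed (25%), and rose by 0.44 ± 0.16 (adjusted p 0.049). Several of these calls were lost when 1 library was left out. Of 16 such fits Bid passed in 3, Prdm1 in 4, Ptpn22 in 5, Itga4 in 8 and Icam1 in 12. The type 2 immunity list had 1 gene that rose and 1 that fell, Il13ra1 and Ccl11, of 11 (18.2% in all).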
